A study of Mus musculus with 8 samples.

Results

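Axon guidance ligands and receptors were followed through fusion-induced reprogramming of mouse neural stem cells. The genes were taken by symbol from the table of gene expression: every semaphorin of the Sema3 to Sema7 groups, every plexin, both neuropilins, every ephrin and Eph receptor, the Slit ligands with their Robo receptors, and the netrins with Dcc and the Unc5 receptors. This rule found 71 of the 24354 genes listed, and it used no expression value. Of these, 37 were ligands and 34 were receptors. RNA sequencing covered 8 libraries in 4 groups of 2, with levels given as FPKM (fragments per kilobase of transcript and per 1000000 mapped fragments).

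NSCs were neural stem cells of a line carrying the OG2 and ROSA26 transgenes, a GFP reporter of the Oct4 distal enhancer and a ubiquitous lacZ, grown on gelatin with EGF and FGF2 and without feeder cells. EPSCs (extended pluripotent stem cells) were derived from cleavage-stage C57BL/6 embryos and kept in LCDM medium, which holds LIF, CHIR99021, dimethindene maleate and minocycline hydrochloride. Hybrid cells were tetraploid EPSC-NSC cells made with polyethylene glycol and grown in the same LCDM medium, and ESCs were embryonic stem cells of the E14 line in serum and LIF. The titles mark the ESCs and the EPSCs as wild type. ESCs, EPSCs and hybrid cells grew on inactivated mouse embryonic fibroblasts, and NSCs did not. Both libraries of a group came from 1 line. The study calls its duplicates independent experiments, but the labels name no separate cultures, and p-values measured only the spread between these libraries, which may be technical in part. NSCs differed from the other groups in feeder cells and medium, and EPSCs from ESCs in medium and line, which cannot be told apart from cell type, while hybrid cells and EPSCs shared medium and feeder cells. The library codes of the EPSCs (p15) and the hybrid cells (p10) differ, and the labels do not say what they stand for.

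Guidance cues steer growing axons and migrating cells by attraction or repulsion. Semaphorins signal through plexins, with neuropilins as co-receptors of the secreted Sema3 ligands. Ephrins are tethered to the membrane and bind Eph receptor tyrosine kinases on neighbouring cells, so that both cells can respond. Slit ligands act through Robo receptors, and Ntn1 acts through Dcc and the Unc5 receptors. In neural stem cells and their progeny these proteins also govern niche contact and migration, and Epha2 is a receptor long known from embryonic stem cells and epithelia.

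The steps between FPKM values gave an estimated depth per library of 21.9 to 32.4 times 1000000 fragments, assuming fragments of 200 bases. At the median transcript length of the members, 3 fragments then corresponded to 0.0185 to 0.0274 FPKM, and lower values rest on very few fragments. The cell labels were checked against 10 markers each. Summed neural stem cell markers reached 4823 and 4709 FPKM in NSCs and 225 to 672 elsewhere, with 5 or 6 of the 10 markers at 1 FPKM or more in the other groups. Vim, an intermediate filament gene that fibroblasts also express, made up most of the latter sums, and the other 9 markers summed to 3777 and 3733 FPKM in NSCs and to 16.4 to 29.7 elsewhere. Summed pluripotency markers reached 4867 to 5902 FPKM in ESCs, EPSCs and hybrid cells and 0.561 and 0.550 in NSCs, where 7 of the 10, Pou5f1 among them, were listed at 0.

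Summed over all 71 members, expression was highest in NSCs. The NSC libraries summed to 534 and 543 FPKM, against 269.6 and 273 in ESC, 282 and 266 in EPSC and 319 and 274 in hybrid libraries. Every NSC library exceeded every other library, and the EPSC libraries overlapped with those of ESCs and of hybrid cells. With 2 libraries against 2, an exact permutation test cannot give a two-sided p below 0.33. A mean of at least 1 FPKM was reached by 44 members in NSCs, 35 in hybrid cells and 30 each in EPSCs and ESCs.

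**Figure D1:**
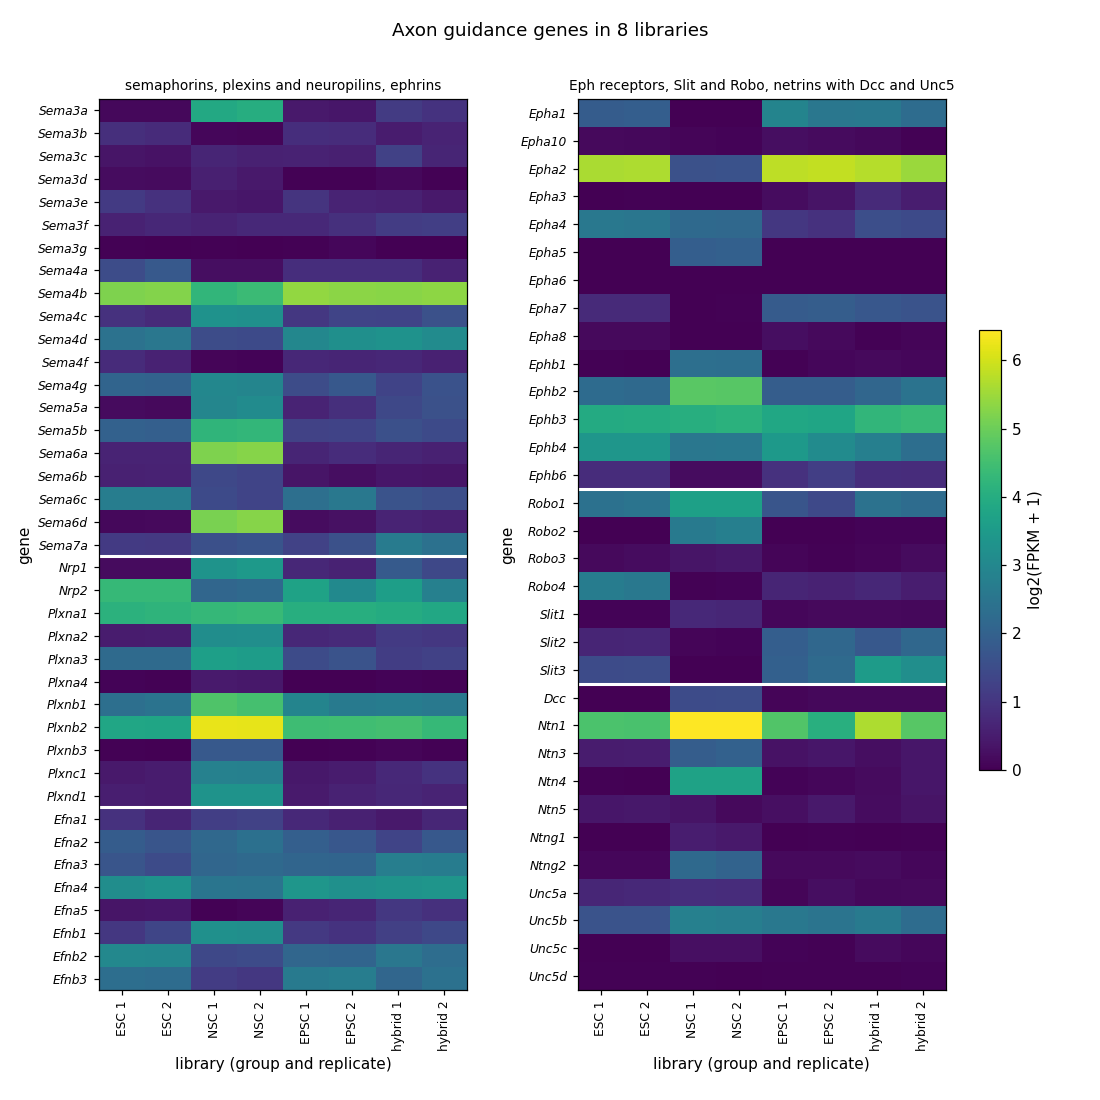
Level of each member, as log2(FPKM + 1), in the 8 libraries, with rows grouped by family. Members that never reached a group mean of 1 FPKM are included. The 2 libraries of a group look alike in most rows, and the NSC columns stand apart from the EPSC, hybrid and ESC columns.

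The families differed in where the NSC level stood. The netrin family summed to 114 and 113 FPKM in NSCs and 30.9 and 21.5 in EPSCs. Plexins and neuropilins summed to 167 and 165 FPKM in NSCs and 58.7 and 53.5 in EPSCs, and semaphorins summed to 152 and 161 FPKM in NSCs and 64.3 and 66.0 in EPSCs. In these 3 families every NSC library was the higher. Eph receptors ran the other way, with 59.7 and 60.3 FPKM in NSCs and 92.7 and 90.2 in EPSCs. That direction rested on Epha2, which made up 60.8% of the EPSC sum: without it the NSC libraries summed to 57.7 and 58.2 FPKM and the EPSC libraries to 38.0 and 33.6. Ephrins summed to 24.2 and 24.8 FPKM in NSCs and 26.3 and 24.9 in EPSCs, with both NSC libraries below both EPSC libraries. Slit and Robo sums were 17.9 and 18.7 FPKM in NSCs, 18.3 and 16.2 in hybrid cells and 8.76 and 9.54 in EPSCs, with Robo1 as the leading gene in NSCs and Slit3 in hybrid cells. The totals of FPKM differed between libraries, and where every library was scaled to a sum of 1000000, the last 3 families changed: ephrins were then higher in NSCs (58.3 and 59.8, against 40.2 and 40.2 in EPSCs), Eph receptors overlapped (143.9 and 145.1 against 141.8 and 145.6), and Slit and Robo sums stood at 43.1 and 45.0 in NSCs and 28.5 and 25.5 in hybrid cells.

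**Figure D2:**
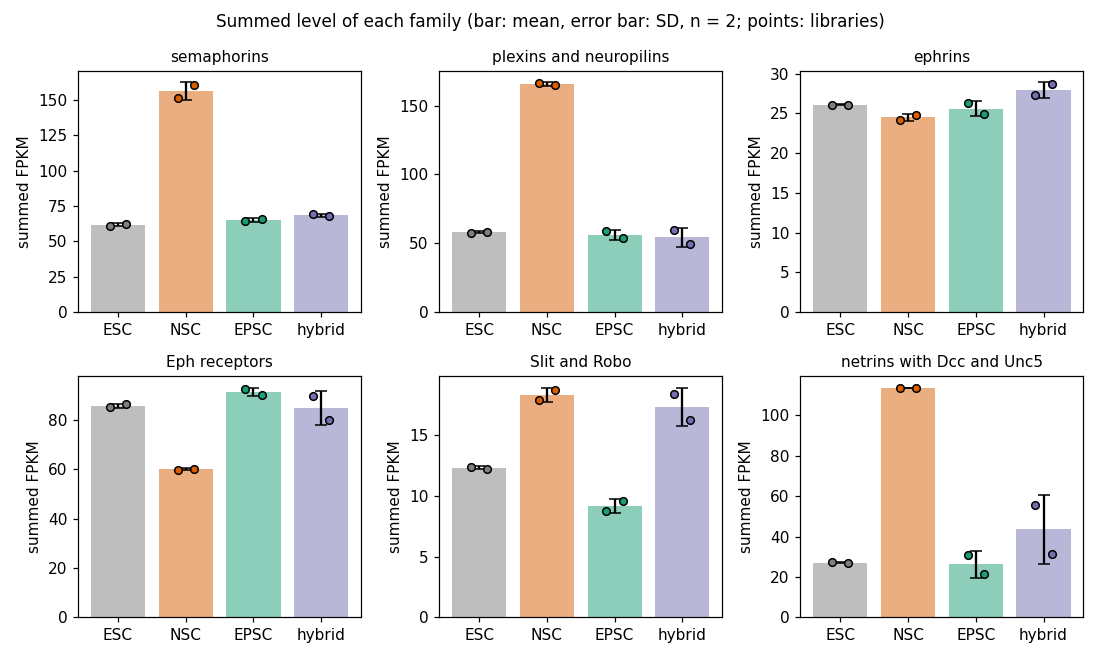
Summed FPKM of each family in each library (points) with the group mean (bar). NSCs hold the highest sums for semaphorins, plexins with neuropilins, and netrins, and the lowest for Eph receptors, which did not hold after scaling to equal totals or without Epha2.

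The first comparison asked which guidance genes distinguished the parental cells before fusion. Most members that could be tested were lower in EPSCs than in NSCs. Of the 53 members that reached a mean of 1 FPKM in at least 1 group, 17 were higher in EPSCs, 32 were lower and 4 did not pass the test (limma on log2(FPKM + 1), Benjamini-Hochberg adjusted p under 0.05 over 13239 genes). Differences between these lines were very common, and 86.2% of all tested genes passed, 45.2% higher and 41% lower in EPSCs, so the members' 92.5% lies close to the background, and their 60.4% lower stands beside 41%. With a difference of at least 1 on the log2(FPKM + 1) scale in addition, 10 members were higher and 28 lower, beside 23% and 23.9% of all tested genes. Some of the lower members, such as Sema6a, Sema6d, Ntn4, Robo2 and Dcc, averaged at least 1 FPKM in NSCs alone. They entered the test only through the group where they were high, so the filter set their direction. With no filter on low values, 23 members were higher and 38 lower. The median difference on the log2(FPKM + 1) scale was -1.20 over the members and 0.08 over all tested genes. FPKM summed to less in NSCs (415240 and 415412) than in the other libraries (600674 to 653796). Scaling every library to the same sum moved the median of all genes to -0.48 and the counts over the same 53 members to 14 higher and 35 lower. Family medians of this difference were -1.94 for plexins and neuropilins, -1.78 for netrins with their receptors, -1.06 for semaphorins, -0.08 for ephrins, 0.23 for Eph receptors and 0.58 for Slit and Robo. Scaling turned the Eph median to -0.33, and quantile normalization turned that of ephrins to 0.33. Differences on the log2(FPKM + 1) scale understate the change of low genes, and every difference that follows is on it.

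Among the ligands, 15 of 28 tested were lower in EPSCs and 10 were higher, beside 41% and 45.2% of all tested genes. The semaphorins split into 8 lower, 5 higher and 2 not called of 15. Sema6d, a transmembrane ligand of plexin receptors (chr2:124089943-124667789 of GRCm38), was at 34.6 and 37.5 FPKM in NSCs, against 0.166 and 0.224 in EPSC, 0.551 and 0.469 in hybrid and 0.102 and 0.128 in ESC libraries. Both NSC libraries were far above all others, and the EPSC difference was -4.95 (SE 0.08, adjusted p = 3.0e-09). Sema6a, its transmembrane relative and a ligand of class A plexins, was at 35.8 and 37.7 FPKM in NSCs, against 0.592 and 0.758 in EPSC, 0.576 and 0.498 in hybrid and 0.553 and 0.564 in ESC libraries. The NSC libraries again stood alone, with a difference of -4.50 (SE 0.08, adjusted p = 5.6e-09).

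Sema4b, a transmembrane semaphorin, was the most abundant semaphorin of the pluripotent lines. Its level was 17.9 and 20.2 FPKM in NSCs, against 41.1 and 39.0 in EPSC, 38.5 and 40.1 in hybrid and 35.8 and 37.2 in ESC libraries. All EPSC libraries exceeded all NSC libraries, and the difference of 1.04 (SE 0.07, adjusted p = 3.2e-06) amounted to a ratio of group means of 2.10. This ratio is of unscaled FPKM, and scaling to equal sums lowers it, because FPKM summed to less in NSCs. Sema4d, the ligand of Plxnb1 that is also known as CD100, was at 1.81 and 1.74 FPKM in NSCs, against 6.91 and 8.18 in EPSC, 8.82 and 7.57 in hybrid and 4.38 and 4.92 in ESC libraries. It too was higher in EPSCs, by 1.62 (SE 0.11, adjusted p = 3.4e-06). Sema6c was at 1.73 and 1.51 FPKM in NSCs, against 4.10 and 4.93 in EPSC, 2.12 and 1.91 in hybrid and 5.60 and 5.68 in ESC libraries, and EPSCs exceeded NSCs by 1.07 (SE 0.10, adjusted p = 2.3e-05). Sema3a, the secreted ligand that collapses growth cones through Nrp1, went the other way with 13.9 and 15.2 FPKM in NSCs and 0.347 and 0.321 in EPSCs, a difference of -3.54 (SE 0.09, adjusted p = 2.1e-08).

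Of 7 ephrins tested, 3 were higher in EPSCs, 3 lower and 1 not called, beside 45.2% higher and 41% lower over all tested genes. After scaling to equal sums, Efnb2 was no longer called higher and Efna3 was called lower. Efnb1, a transmembrane ephrin, was at 8.45 and 8.05 FPKM in NSCs, against 1.101 and 0.936 in EPSC, 1.34 and 1.64 in hybrid and 1.08 and 1.54 in ESC libraries. NSCs were above all other libraries, and the difference was -2.20 (SE 0.12, adjusted p = 9.0e-07). Efnb3, a midline ephrin of the spinal cord, was at 1.22 and 1.07 FPKM in NSCs, against 5.16 and 5.65 in EPSC, 3.34 and 4.32 in hybrid and 4.002 and 3.86 in ESC libraries and was higher in EPSCs by 1.58 (SE 0.11, adjusted p = 4.5e-06). Efna4, anchored to the membrane by a lipid, was the leading ephrin of ESCs, EPSCs and hybrid cells, at 4.71 and 4.62 FPKM in NSCs, against 9.39 and 8.48 in EPSC, 9.003 and 9.29 in hybrid and 7.88 and 8.77 in ESC libraries. It was higher in EPSCs by 0.81 (SE 0.08, adjusted p = 4.0e-05). Over the alternatives this difference ran from 0.297 to 1.155. Efna1 was low throughout, with 1.31 and 1.41 FPKM in NSCs and 0.675 and 0.511 in EPSCs, a difference of -0.57 (SE 0.12, adjusted p = 0.00255).

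Both Slit ligands that were tested, Slit2 and Slit3, were higher in the pluripotent parent, while Slit1 stayed under the filter with higher means in NSCs. Slit2, the main repellent ligand of Robo1 and Robo2, was at 0.0635 and 0.0372 FPKM in NSCs, against 2.81 and 3.45 in EPSC, 2.43 and 3.48 in hybrid and 0.595 and 0.603 in ESC libraries. The EPSC libraries were above the NSC libraries by 1.97 (SE 0.13, adjusted p = 3.6e-06). Slit3, another secreted Robo ligand (chr11:35121456-35708507), was at 0 and 0.0072 FPKM in NSCs, against 2.94 and 3.70 in EPSC, 10.7 and 8.12 in hybrid and 1.77 and 1.85 in ESC libraries. NSCs were listed at or under the level of 3 fragments, and EPSCs exceeded them by 2.10 (SE 0.13, adjusted p = 2.4e-06). Netrins ran in the opposite direction. Ntn1, the founding netrin and the most abundant member of all in NSCs (chr11:68209364-68386826), was at 85.6 and 86.1 FPKM in NSCs, against 25.1 and 15.7 in EPSC, 49.3 and 26.4 in hybrid and 23.8 and 23.1 in ESC libraries. The NSC mean was 4.21 times the EPSC mean, a log2 difference of -2.06 (SE 0.29, adjusted p = 2.7e-04). Ntn4, a netrin of basement membranes, was at 12.1 and 12.1 FPKM in NSCs, against 0.0410 and 0.0788 in EPSC, 0.132 and 0.318 in hybrid and 0.0277 and 0.0151 in ESC libraries. It was the netrin with the largest difference, at -3.63 (SE 0.09, adjusted p = 1.6e-08). No netrin, Dcc or Unc5 gene was called higher in EPSCs.

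Of 25 receptors tested, 17 were lower in EPSCs and 7 higher, beside 41% and 45.2% of all tested genes. All 8 tested plexins were lower. Plxnb2, a receptor of Sema4 ligands in neural progenitors and the most abundant plexin of every group but ESCs, where Plxna1 led at 16.6 and 17.2 FPKM, was at 73.9 and 73.2 FPKM in NSCs, against 20.8 and 21.3 in EPSC, 21.8 and 19.0 in hybrid and 13.0 and 12.9 in ESC libraries. NSCs exceeded every other library, with a difference of -1.76 (SE 0.07, adjusted p = 1.8e-07). Plxnd1, the receptor of Sema3e, was at 8.90 and 8.89 FPKM in NSCs, against 0.383 and 0.543 in EPSC, 0.630 and 0.549 in hybrid and 0.460 and 0.402 in ESC libraries and differed by -2.76 (SE 0.08, adjusted p = 4.3e-08). The neuropilins parted. Nrp1, the co-receptor of Sema3a, was at 8.98 and 10.1 FPKM in NSCs, against 0.630 and 0.531 in EPSC, 2.54 and 1.65 in hybrid and 0.140 and 0.135 in ESC libraries, with EPSCs lower at -2.74 (SE 0.14, adjusted p = 6.4e-07). Nrp2, the co-receptor of Sema3f, was at 3.39 and 3.61 FPKM in NSCs, against 12.1 and 7.32 in EPSC, 11.2 and 6.01 in hybrid and 18.9 and 18.9 in ESC libraries. It was higher in EPSCs by 1.22 (SE 0.28, adjusted p = 0.00408), although the EPSC libraries of Nrp2 differed by 0.66 on the log2 scale, the largest gap of any tested member within that group.

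Of 10 Eph receptors tested, 5 were higher and 5 lower in EPSCs, close to the 45.2% and 41% of all tested genes. After scaling to equal sums, Ephb4 was no longer called higher. Epha2 (chr4:141301221-141329384), a receptor of the lipid-anchored ephrins, was at 2.02 and 2.07 FPKM in NSCs, against 54.6 and 56.5 in EPSC, 51.7 and 43.3 in hybrid and 48.2 and 49.4 in ESC libraries. The EPSC mean of 55.6 ± 1.32 FPKM (SD, n = 2) stood against 2.04 ± 0.0348 in NSCs, a ratio of 27.2 and a log2 difference of 4.22 (SE 0.08, adjusted p = 7.2e-09). Epha1, another receptor of this class, was listed at 0 in both NSC libraries, against 6.56 and 4.88 FPKM in EPSC, 4.98 and 3.85 in hybrid and 2.698 and 2.81 in ESC libraries. It was higher in EPSCs by 2.74 (SE 0.14, adjusted p = 7.8e-07). Its exons overlap those of Zyx on the opposite strand by 156 bases, and the strand setting of the quantification is not given in the sources used here.

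Ephb1 and Ephb2 were higher in NSCs. Ephb2, a receptor of transmembrane ephrins and the leading Eph receptor of NSCs, was at 26.5 and 26.2 FPKM in NSCs, against 2.76 and 2.71 in EPSC, 3.34 and 4.48 in hybrid and 3.75 and 3.62 in ESC libraries. The difference was -2.87 (SE 0.11, adjusted p = 1.7e-07), with both NSC libraries above all others. Ephb1, which steers retinal axons at the optic chiasm, was at 4.08 and 4.05 FPKM in NSCs, against 0.0311 and 0.0900 in EPSC, 0.115 and 0.0786 in hybrid and 0.0276 and 0.0077 in ESC libraries, a difference of -2.26 (SE 0.06, adjusted p = 3.6e-08). Epha7 was at 0.0107 and 0.0337 FPKM in NSCs, against 2.60 and 2.75 in EPSC, 2.38 and 2.16 in hybrid and 0.705 and 0.688 in ESC libraries, which put EPSCs above NSCs by 1.85 (SE 0.07, adjusted p = 1.6e-07). Epha4, a receptor that binds both classes of ephrin, was at 3.62 and 3.50 FPKM in NSCs, against 1.08 and 0.899 in EPSC, 1.95 and 1.73 in hybrid and 4.93 and 4.77 in ESC libraries and was lower in EPSCs, at -1.20 (SE 0.08, adjusted p = 4.3e-06).

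Robo receptors differed in direction. Robo1, the Slit receptor that repels commissural axons from the midline, was at 11.7 and 11.8 FPKM in NSCs, against 2.27 and 1.70 in EPSC, 4.42 and 3.89 in hybrid and 4.33 and 4.56 in ESC libraries. EPSCs were lower than both NSC libraries, at -2.10 (SE 0.11, adjusted p = 7.6e-07). Robo2 was at 5.17 and 5.91 FPKM in NSCs, against 0.0172 and 0.0055 in EPSC, 0.0422 and 0.0447 in hybrid and 0.0118 and 0.0172 in ESC libraries, and its EPSC libraries were under the level of 3 fragments, with a difference of -2.69 (SE 0.07, adjusted p = 2.9e-08). Robo4, known from endothelial cells, was at 0.0289 and 0.0476 FPKM in NSCs, against 0.581 and 0.523 in EPSC, 0.636 and 0.420 in hybrid and 5.50 and 4.97 in ESC libraries. It was higher in EPSCs than in NSCs by 0.58 (SE 0.09, adjusted p = 4.6e-04). With a mean under 1 FPKM in both, it was not tested when the filter was applied to these 2 groups. Sema3e and Sema4a, also called higher in EPSCs, were likewise not tested, and that fit gave 14 members higher and 33 lower. Dcc, the attractive netrin receptor, was at 1.78 and 1.85 FPKM in NSCs and 0.0622 and 0.103 in EPSCs, and Unc5b, its repulsive counterpart, at 6.02 and 5.80 and 4.98 and 4.56. Dcc differed by -1.38 (SE 0.06, adjusted p = 2.8e-07), and Unc5b did not pass the test at -0.26 (SE 0.12, adjusted p = 0.0792).

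Members differed in both directions between the parents, and their promoters were read for shared letters. Of the 71 members, 61 had at least 1 promoter in the RefSeq table for GRCm38.p6, 77 promoters in all, and the window was the 250 bases before each transcription start. The 3 windows printed here are shown with every CG in capitals, because they stand for a receptor high in EPSCs, a receptor high in NSCs and the ligand that differed most between hybrid cells and EPSCs. Epha2 lies on the plus strand with its window at chr4:141300971-141301220, Ephb1 on the minus strand at chr9:102354694-102354943, and Slit3 on the plus strand at chr11:35121206-35121455.
Epha2: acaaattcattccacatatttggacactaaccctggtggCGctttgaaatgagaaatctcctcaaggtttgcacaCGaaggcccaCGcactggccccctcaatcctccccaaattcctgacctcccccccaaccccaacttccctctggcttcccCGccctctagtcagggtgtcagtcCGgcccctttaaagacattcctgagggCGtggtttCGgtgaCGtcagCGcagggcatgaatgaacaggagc
Ephb1: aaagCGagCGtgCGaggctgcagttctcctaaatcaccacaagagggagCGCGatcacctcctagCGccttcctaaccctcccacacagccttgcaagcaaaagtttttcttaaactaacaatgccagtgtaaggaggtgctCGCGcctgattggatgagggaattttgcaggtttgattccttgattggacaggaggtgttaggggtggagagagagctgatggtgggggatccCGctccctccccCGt
Slit3: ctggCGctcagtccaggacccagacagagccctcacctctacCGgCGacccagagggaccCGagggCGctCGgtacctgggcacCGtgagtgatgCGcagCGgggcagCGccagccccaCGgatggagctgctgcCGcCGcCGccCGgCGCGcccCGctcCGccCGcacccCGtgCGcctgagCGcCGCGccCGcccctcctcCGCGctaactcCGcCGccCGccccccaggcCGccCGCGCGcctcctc
The window of Epha2 held 9 CGs, that of Ephb1 10 and that of Slit3 35, and 97% of all promoters held fewer CGs than Slit3.

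Member promoters held a median of 15 CGs, against 6 over all 32851 promoters. This background took in every promoter of the RefSeq table (27025 genes), whether or not the gene was tested. No set matched for expression or kind of gene was compared, so a trait particular to guidance genes cannot be read from it. Each word was searched on both strands. The letters GGGCGG (a GC box, which itself holds a CG) occurred in 70.1% of member promoters and 32.7% of all. Promoters of members higher in NSCs by at least 1 on the log2 scale held a median of 14 CGs (31 promoters of 25 genes), and those of members higher in EPSCs by as much 17.5 (14 promoters of 9 genes). The octamer ATGCAAAT was found in 0 of 77 member promoters and in 1.6% of all, the SOX word ACAATG in 9.09% and 10.7%, and the E-box CAGCTG in 15.6% and 13%. A match is a description of the letters only, and no binding or methylation was measured.

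The second comparison set hybrid cells against their somatic parent. Of the 53 members, hybrid cells were higher than NSCs for 18 and lower for 32, and 3 did not pass the test, beside 44.5% and 42% of all tested genes (86.5% in either direction). With a difference of at least 1 on the log2 scale, 9 were higher and 26 lower, beside 23.3% and 23.9%. Here too some lower members had entered the test through NSCs alone. With no filter on low values, 22 members were higher and 38 lower. The 4 comparisons share libraries, so their values are given side by side. Sema6a was the member lowered most along with Sema6d, at -4.62 (SE 0.08, adjusted p = 5.2e-09) and -4.62 (SE 0.08, adjusted p = 4.2e-09). Epha2 had the largest increase, 3.99 (SE 0.08, adjusted p = 9.6e-09), followed by Slit3 at 3.36 (SE 0.13, adjusted p = 2.0e-07). Ntn4 fell by 3.43 (adjusted p = 2.1e-08) and Ephb2 fell by 2.49 (adjusted p = 3.7e-07). Nrp2, at 1.04 (SE 0.28, adjusted p = 0.00886), was not called after scaling to equal sums or without NSC replicate 1 (highest adjusted p = 0.0886). Ephb3, with 15.6 and 16.3 FPKM in NSCs and 17.8 and 19.2 in hybrid cells, was higher in hybrid cells at 0.20 (SE 0.07, adjusted p = 0.0202) but called lower after the scaling, at -0.40 (adjusted p = 0.00104). When only these 2 groups were filtered and fitted, 14 members were higher and 31 lower. Ephb6, Robo4 and Sema4a then fell under the filter, and Ephb3 and Unc5b were not called. All these values are limma's, adjusted over all tested genes.

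The position of each member between its parents was then described, on a scale from 0 at the NSC mean to 1 for EPSCs. For this, the 38 members called with a log2 difference of at least 1 between the parents were used (71.7% of the 53 tested, beside 46.9% of all tested genes), 28 higher in NSCs and 10 higher in EPSCs. In hybrid cells 37 of them stood nearer to EPSCs (97.4%), and the same held for 96.1% of the 6204 genes chosen in this way. The median position was 0.938 for the members and 0.967 for those genes. Sema6c was the exception at 0.188. Epha4 (0.573), Ntn1 (0.596), Robo1 (0.622), Nrp1 (0.651) and Sema5a (0.675), which are all higher in NSCs, had the lowest positions among the rest. Slit3 lay farthest beyond EPSCs, at 1.60.

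**Figure D3:**
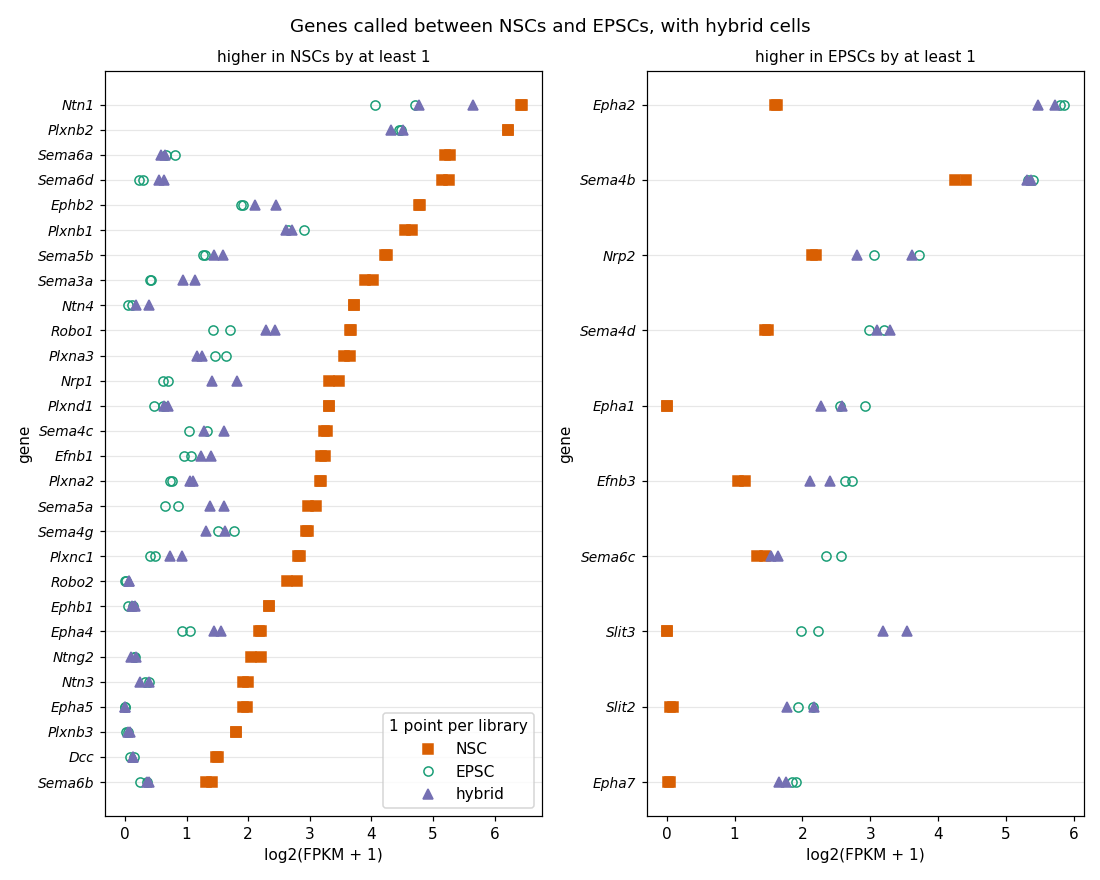
Level in every library of the members that differed by at least 1 between the parents on the log2(FPKM + 1) scale for NSCs, hybrid cells and EPSCs. Hybrid means lie nearer to EPSCs for 37 of 38 members, with Sema6c at 0.188 of the way from NSCs and Slit3 at 1.60.

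The third comparison set hybrid cells against their pluripotent parent. Here 15 members were higher in hybrid cells, 4 were lower and 34 were not called, beside 22.5% higher and 21.9% lower over all tested genes (44.4% together). On the log2(FPKM + 1) scale 2 of the calls reached a difference of 1, both higher (2.21% of all tested genes), and 0 were lower by that much (1.35%). By the ratio of mean FPKM, 8 of the calls were at least 2-fold higher (5.82% of all tested genes), namely Slit3, Sema7a, Nrp1, Sema3a, Sema5a, Sema6d, Plxnc1 and Robo1, and 1, Sema6c, was at least 2-fold lower (3.01%). The 2 with a log2 difference over 1 were ligands. Slit3 was at 10.7 and 8.12 FPKM in the hybrid libraries and 2.94 and 3.70 in the EPSC libraries. Its hybrid libraries were the highest of all 8, and the difference was 1.26 (SE 0.13, adjusted p = 6.0e-04), or 2.83 times the EPSC mean. Sema7a, a lipid-anchored semaphorin that binds Plxnc1 and integrins (chr9:57939596-57962865), was at 1.99 and 2.21 FPKM in NSCs, against 1.40 and 2.02 in EPSC, 5.42 and 4.32 in hybrid and 1.13 and 1.11 in ESC libraries. The hybrid libraries lay above every parental library, with 1.12 (SE 0.14, adjusted p = 9.5e-04).

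Several members that were high in NSCs were higher in hybrid cells than in EPSCs. Nrp1 was at 2.54 and 1.65 FPKM in hybrid libraries and 0.630 and 0.531 in EPSC libraries, without overlap, and differed by 0.96 (SE 0.14, adjusted p = 0.0018). Robo1 stood at 4.42 and 3.89 against 2.27 and 1.70 FPKM, and differed by 0.79 (SE 0.11, adjusted p = 0.00152). Sema5a, a transmembrane semaphorin with thrombospondin repeats, was at 1.62 and 2.05 against 0.572 and 0.813, with 0.74 (SE 0.11, adjusted p = 0.00203). In each case the hybrid libraries stayed under the NSC libraries. Sema3a (0.62) and Epha4 (0.51) were higher by less on this scale. Efna3 (0.65) and Ephb3 (0.46), which were not among the members higher in NSCs by at least 1, were also higher than in EPSCs. Their hybrid libraries exceeded the NSC libraries as well, at means of 5.66 against 3.48 FPKM for Efna3 and 18.5 against 15.9 for Ephb3, but after scaling to equal sums Efna3 was not called in that comparison and Ephb3 was called lower. Of the 28 members higher in NSCs than in EPSCs by at least 1, 9 were higher in hybrid cells than in EPSCs, 1 was lower and 18 were not called. Over all 3159 such genes the numbers were 796, 372 and 1991. The same EPSC libraries served both to choose these genes and to compare them with hybrid cells, which favours higher hybrid values. Of the 10 members higher in EPSCs by at least 1, 1 was higher in hybrid cells than in EPSCs, 2 were lower and 7 were not called. Over all 3045 such genes the numbers were 630, 914 and 1501.

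Ntn1 was not called in the main fit. Its hybrid libraries were at 49.3 and 26.4 FPKM, the widest gap of any tested member within a group, and the EPSC libraries at 25.1 and 15.7. Both hybrid libraries exceeded both EPSC libraries, but the difference was 0.83 (SE 0.29, adjusted p = 0.0522). Replicate 1 was the higher in both groups, and Ntn1 was called higher with the replicate block. The same call was made with pseudocounts of 0.1 and 0.5, the filter at 3 FPKM, scaling to equal sums and quantile normalization. It was not made with no filter on low values or when only the 2 groups were filtered and fitted, and fits with 1 library left out differed in it. Over the alternatives the adjusted p of limma ranged from 0.00681 to 0.242.

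The lower members were few. Sema6c had 2.12 and 1.91 FPKM in hybrid libraries and 4.10 and 4.93 in EPSC libraries, beside 1.73 and 1.51 in NSCs. The hybrid libraries lay below the EPSC libraries, with a difference of -0.87 (SE 0.10, adjusted p = 8.0e-04). The difference from NSCs, 0.20 (adjusted p = 0.0932, limma), was not called. It was -0.24 after scaling to equal sums, and it was called, at 0.37 (adjusted p = 0.0083), only with quantile normalization among the alternatives run. Ephb4, a receptor of Efnb2, was at 5.83 and 4.003 against 10.2 and 7.58 FPKM, a difference of -0.74 (SE 0.17, adjusted p = 0.0108). Efnb3 (-0.41) and Plxna3 (-0.34) were lower by less. Of these calls, 9 of the 15 higher (Slit3, Sema7a, Nrp1, Robo1, Sema5a, Efna3, Sema3a, Epha4 and Ephb3) and 1 of the 4 lower (Sema6c) were made in every one of 16 alternatives fitted with limma. The threshold rule of the study's methods, which has no test, is not among these 16 and left 0 higher and 0 lower. When only these 2 groups were filtered and fitted, Efnb2, Ephb2, Plxna2 and Sema3f were tested and not called, and Plxnc1 and Sema6d fell under the filter. With the 13239 genes kept, the fit of 2 groups lost Efnb2 and Ephb2 of the 15 higher and left Sema6c alone of the 4 lower.

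**Figure D4:**
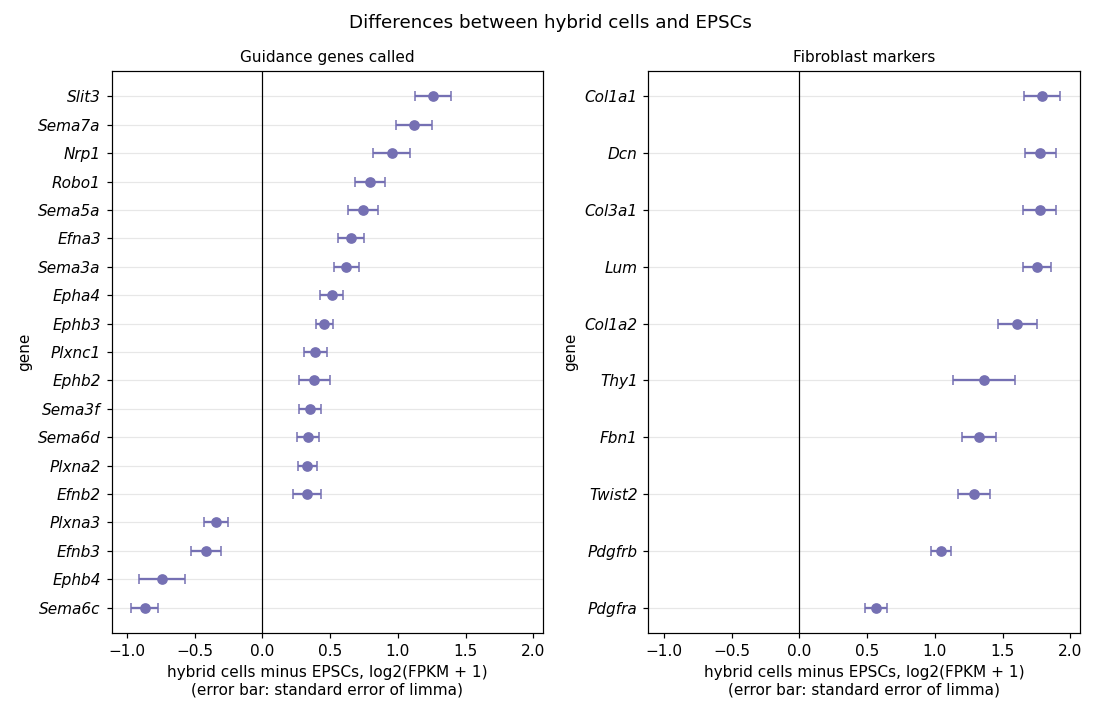
Difference between hybrid cells and EPSCs on the log2(FPKM + 1) scale, with standard errors, for the called members (left) and for fibroblast markers (right). Among the members shown, Slit3 and Sema7a lie above 1, and Sema6c and Ephb4 are the lowest.

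Fibroblast markers moved with this comparison. The 10 markers of the feeder cells summed to 293 and 219 FPKM for hybrid cells, 76.7 and 74.6 for EPSCs, 12.2 and 13.2 for ESCs and 8.10 and 8.02 for NSCs. All 10 were called higher in hybrid cells than in EPSCs, with a median difference of 1.49, and 9 of 10 were called higher in EPSCs than in ESCs. Col1a2, Lum and Twist2 were listed at 0 in both NSC libraries. Other marker lists also moved between hybrid cells and EPSCs. Of 10 neural stem cell markers, 4 were lower in hybrid cells and 1 higher, and of 10 pluripotency markers 1 was lower and 3 higher. Of 4 trophoblast markers tested, 2 were lower and 0 higher, and of 3 primitive endoderm markers 2 were lower and 0 higher. Krt8 averaged 5.49 FPKM in hybrid cells and 20.4 in EPSCs. The part of feeder cells in the levels of Slit3, Sema7a, Nrp1 and the other members was not tested. In these bulk libraries a larger number of cells of a type and more RNA per cell cannot be told apart.

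The fourth comparison set EPSCs against ESCs, the pluripotent states of different lines and media. Of the 53 members, 14 were higher in EPSCs, 12 were lower and 27 were not called, beside 33.7% higher and 27.3% lower over all tested genes (61% together). A log2 difference of at least 1 was reached by 2 of the higher and 2 of the lower members, beside 5.08% and 4.81%. By the ratio of mean FPKM, 7 were at least 2-fold higher and 7 at least 2-fold lower, beside 9.45% and 9.35%. Those past the ratio alone were Sema5a, Nrp1, Sema3a, Unc5b and Epha1 among the higher and Sema4a, Sema6b, Robo1, Efnb2 and Sema5b among the lower. Of these, Sema5a, Nrp1, Sema3a and Sema6b averaged under 1 FPKM in both groups. Sema5a, Nrp1 and Sema3a passed the filter through NSCs and hybrid cells, and Sema6b through NSCs alone. None of them was tested when the filter was applied to the 2 groups compared, and neither was Plxna2, another of the higher calls. Slit2 was at 2.81 and 3.45 FPKM in EPSCs and 0.595 and 0.603 in ESCs, which differed by 1.36 (SE 0.13, adjusted p = 1.4e-04). Epha7 was at 2.60 and 2.75 against 0.705 and 0.688, and was higher by 1.11 (SE 0.07, adjusted p = 2.3e-05). Robo4 was at 5.50 and 4.97 FPKM in ESCs and 0.581 and 0.523 in EPSCs, a difference of -2.01 (SE 0.09, adjusted p = 5.2e-06). Epha4 was at 4.93 and 4.77 in ESCs against 1.08 and 0.899, a difference of -1.56 (SE 0.08, adjusted p = 1.2e-05). The groups did not overlap for any of these 4 genes, nor for 83.3% of all tested genes. Robo4 in ESCs stood above every library of the other groups.

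Differences under 1 on the log2 scale were called for ligands and receptors alike. Plxnb2 (0.66), Sema4d (0.60), Slit3 (0.62), Epha1 (0.83) and Unc5b (0.88) were higher in EPSCs, all with a limma call. Efnb2, the transmembrane ephrin of arteries, was lower at -0.90 (SE 0.10, adjusted p = 2.6e-04), as was Robo1 at -0.87 (SE 0.11, adjusted p = 4.0e-04). Nrp2 was lower at -0.93 (SE 0.28, adjusted p = 0.0227), with 12.1 and 7.32 FPKM in EPSCs and 18.9 and 18.9 in ESCs, and the call was lost without EPSC replicate 2, either ESC library or either NSC library, and with no filter on low values. Leaving out either ESC library reduced the 14 higher calls to 9 and the 12 lower calls to 8, and Efnb3, Nrp1, Plxna2, Plxnb1 and Sema3a were the higher calls lost. Without either NSC library the lower calls were also 8. Epha2 (0.18, adjusted p = 0.092) and Sema4b (0.13, adjusted p = 0.142), the 2 most abundant members of both lines, did not pass limma's test.

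Other genes of the pathway were read from 2 lists chosen by known role. Of 20 further guidance and adhesion proteins, 17 were tested, some of them, such as Chl1, through NSCs alone. In EPSCs 13 were lower than in NSCs and 1 was higher, with a median of -2.50, and in hybrid cells 13 were lower and 2 higher, with a median of -2.45. The 1 and 2 higher became 2 and 4 after scaling to equal sums and with quantile normalization, and 3 and 4 with no filter on low values. Calls in either direction made up 86.2% and 86.5% of all tested genes in these comparisons, 44.4% between hybrid cells and EPSCs and 61% between EPSCs and ESCs, and the counts of both lists are read beside these shares. Chl1, an adhesion molecule of the L1 family, averaged 73.5 FPKM in NSCs and only 0.0263 in EPSCs and 0.0166 in hybrid cells, and Rgma, a ligand of the netrin receptor relative Neo1, averaged 54.4, 0.869 and 1.17. Between hybrid cells and EPSCs 4 were higher and 0 lower (median 0.06), among them Flrt2, an adhesion protein that binds Unc5d, at 1.08. The 4 became 2 without EPSC replicate 1 or hybrid replicate 1, and 1 when only the 2 groups were filtered and fitted. Of 41 intracellular effectors, 38 were tested. EPSCs were lower than NSCs for 26 and higher for 8, with a median of -0.84, hybrid cells were lower for 24 and higher for 9 (median -0.65), and hybrid cells against EPSCs gave 13 higher and 6 lower (median -0.05). Fyn, a kinase downstream of Dcc and Eph receptors, averaged 131 FPKM in NSCs and 6.02 in hybrid cells. Against ESCs, EPSCs were higher for 3 and lower for 6 of the guidance and adhesion proteins, and higher for 12 and lower for 15 of the effectors. The 6 became 3 without either ESC library and 2 when only the 2 groups were filtered and fitted, but stayed at 6 in that fit with the genes tested kept. For the effectors, the 12 became 7 without ESC replicate 2, the 13 and 6 between hybrid cells and EPSCs became 6 and 3 when only the 2 groups were filtered and fitted, and the 8 higher in EPSCs than in NSCs became 4 after scaling to equal sums.

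The other 18 members never reached a group mean of 1 FPKM and were not tested. They were Sema3b, Sema3c, Sema3d, Sema3g, Sema4f, Plxna4, Efna5, Epha3, Epha6, Epha8, Epha10, Robo3, Slit1, Ntn5, Ntng1, Unc5a, Unc5c and Unc5d. The 9 ligands and 9 receptors in this set had highest group means between 0.00802 FPKM (Epha6 in ESCs) and 0.981 FPKM (Sema3c in hybrid cells), and the lowest member to pass was Sema3e, at 1.02 FPKM in ESCs. Slit1 averaged 0.647 FPKM in NSCs and 0.105 in EPSCs, and Sema3c 0.546 and 0.503. No member was listed at 0 in all 8 libraries.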

How the data were processed

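Poly-A RNA libraries of 2 parental lines (NSCs and EPSCs), their hybrid cells and ESCs (8 in all) were sequenced by the authors, who, per the labels and methods, aligned reads with STAR 2.7.9a to mm10 and obtained gene levels from Cuffnorm (Cufflinks 2.2.1). The authors deposited FPKM per gene and library without pooling, so no count test was run. The annotation, strand setting and library normalization of Cuffnorm are not given in the sources used here, and exons of 11 members overlap a gene on the opposite strand and those of 4 a gene on the same strand.

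FPKM were compared with limma 3.58.1 (R 4.3.3) on log2(FPKM + 1), with the 4 groups in 1 fit, 4 residual and 3.25 prior degrees of freedom. The 13239 of 24354 genes with a mean of at least 1 FPKM in at least 1 group were tested, two-sided, and called at a Benjamini-Hochberg adjusted p under 0.05 over all of them. The fit was tested on simulated data. Tables and figures were made with Python 3.11.15, pandas 2.3.3 and matplotlib 3.10.9.

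The members and lists were chosen with earlier results of these data known. RefSeq's gene table for GRCm38 held all 71 members. Members named with values were the 2 largest called differences between EPSCs and NSCs in each direction of each family, every member called with a log2 difference of at least 1 between hybrid cells and EPSCs or EPSCs and ESCs, those nearer to NSCs in hybrid cells, and the leading member of each family in each group. Other members were named where a count turned on them, after their values were seen. The depth was estimated from the steps between low FPKM values and covers counting error only. Alternatives were pseudocounts of 0.1 and 0.5, no filter or a filter at 3 FPKM, FPKM scaled to a sum of 1000000, quantile normalization, the replicate number as a block, only the 2 groups compared (which also applied the filter to those 2), each library left out, the threshold rule of the study's methods, applied as a group mean over 3 FPKM and a ratio over 3, and, chosen after seeing the data, a lower rule with 2 in place of both and the 2 groups with the same genes tested.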

Additional observations from a re-analysis of the deposited data

How the results depend on the processing

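None of the member counts changed its leading direction between NSCs and either EPSCs or hybrid cells under any alternative, and of the single-gene results 1626 kept their direction and side of the threshold, 49 lost a call, 27 gained one and 0 reversed among the genes named by rule. The threshold rule of the study's methods, which has no test, left 6 members higher and 23 lower in EPSCs than in NSCs, 5 higher and 20 lower in hybrid cells than in NSCs, 0 higher and 0 lower in hybrid cells than in EPSCs, and 1 higher and 2 lower in EPSCs than in ESCs. The study also states a lower pair of thresholds. Applied as a mean over 2 FPKM and a ratio over 2, an alternative chosen after seeing the data, it gave 10 higher and 26 lower, 11 and 25, 4 (Nrp1, Robo1, Sema7a and Slit3) and 1 (Sema6c), and 4 and 6 in the same order. In hybrid cells against EPSCs, filtering and fitting only the 2 groups gave 9 higher and 2 lower, the same fit with the 13239 genes kept (chosen after seeing the data) gave 13 and 1, and 7 were lower without a filter (more genes tested) and with quantile normalization. The cause of the last was not tested. Leaving out 1 library at a time gave 16 to 18 higher and 31 to 33 lower between EPSCs and NSCs, 16 to 19 and 31 to 32 between hybrid cells and NSCs, 12 to 18 and 4 to 5 between hybrid cells and EPSCs, and 9 to 19 and 8 to 12 between EPSCs and ESCs, the 9 without an ESC library and the 8 without an ESC or an NSC library. The number of members nearer to EPSCs was 35 to 37. Same-numbered libraries correlated at 0.07, -0.02, 0.28 and 0.06 in the comparisons of EPSCs with NSCs, hybrid cells with NSCs, hybrid cells with EPSCs, and EPSCs with ESCs. No label says what a number marks, so the numbers were not taken as pairs. With the replicate block, 17 and 32 members were higher and lower in EPSCs than in NSCs, 18 and 32 in hybrid cells than in NSCs, 16 and 5 in hybrid cells than in EPSCs, and 14 and 11 in EPSCs than in ESCs. In hybrid cells against EPSCs the block added Ntn1 as higher and Sema3e as lower, and it removed the call of Sema6c in EPSCs against ESCs. With 2 libraries in each group the spread rests on the pooled fit, and levels under about 3 fragments cannot be told from 0.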

Other observations

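Markers of further cell types were summed as a description of what the libraries held. Oligodendrocyte-lineage markers summed to 673 and 672 FPKM in NSCs, nearly all of it Olig1 at a mean of 664, and to 2.95 to 11.7 FPKM elsewhere, while Sox10 averaged 0.104 FPKM in NSCs. Markers of postmitotic neurons, the cells in which most of these guidance receptors are best known, summed to 64.0 and 65.6 FPKM in NSCs and to 154 to 219 in the other groups. The higher sums came from Stmn2 (0.512 FPKM in NSCs, 91.8 to 152 elsewhere) and Tubb3 (3.21 in NSCs, 25.7 to 78.8 elsewhere), while Gap43 averaged 56.7 FPKM in NSCs and 2.90 to 5.70 elsewhere, and Syp was higher in NSCs (mean 3.09 FPKM) than in EPSCs and hybrid cells. Snap25, Syt1 and Dcx, at means of 0.754, 0.238 and 0.218 FPKM in NSCs, were too low to be tested. Trophoblast markers summed to 0.0623 and 0.0100 FPKM in NSCs and 46.3 to 84.2 in the others, of which Tfap2c made up 33.9 to 37.7 by group mean and Krt8 and Krt18 most of the rest, while Elf5 averaged at most 0.0645. Cdx2 was at 1.07 and 0.249 FPKM in the hybrid libraries, 0.536 and 0.426 in EPSCs, 0.110 and 0.223 in ESCs and 0 in NSCs. Primitive endoderm markers summed to 3.08 to 7.38 FPKM in all libraries.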
